A study of Mus musculus with 20 samples.

Results

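The transcripts described here are those of the translation initiation factors (eIFs) and elongation factors (eEFs), with the kinases and binding proteins named after them. They were chosen by symbol, as every gene whose symbol begins with Eif1 to Eif6 or with Eef1 or Eef2, leaving out the sex-linked pair Eif2s3x and Eif2s3y. The rule found 63 of the 19269 gene symbols in the table. Of these, 59 encode factors or their regulators, and 4 (Eif2c1 to Eif2c4) are older symbols of the Argonaute genes Ago1 to Ago4, which act in microRNA silencing. Of the 63, 62 passed the filter on low counts in each comparison. Eif4e1b, a relative of the cap-binding protein gene, did not: it stood at 0 in 18 of the 20 libraries and at 1 count in each of the other 2.

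The study measured polyA RNA from tissue punches of female mice, taken in the preoptic area of the hypothalamus, where most neurons that make gonadotropin-releasing hormone (GnRH) lie. It used translating ribosome affinity purification, in which ribosomes with a GFP-tagged L10a protein are pulled down with the mRNA they carry; the pull-down (IP) and the depleted supernatant were sequenced. Each pool joined tissue of 3 to 4 mice, at day 21 (young) or at days 70 to 150 in diestrus (adult). Negative control pools lacked the tagged ribosomes and showed what the pull-down retains without its target. Young negative pools 1 and 2 were wild type, young negative pool 3 carried the Floxed-L10a-GFP allele only, and both adult negative pools carried GnRH CRE only, so that age and genotype changed together. An adult pool was GFP positive (GnRH CRE with L10a GFP, tag in GnRH neurons only) and gave 1 IP and 1 supernatant. Supernatants of 4 pools of an earlier series, 2 young and 2 adult, all with GnRH CRE and L10a GFP, were sequenced in a first and again in a second set. The labels used here name no prenatal treatment for the prior pools.

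Initiation factors bring the small ribosomal subunit, the initiator tRNA and the mRNA cap together: eIF2 carries the tRNA, eIF3 organises the small subunit, and the cap complex eIF4F (eIF4E, eIF4G and eIF4A) recruits the mRNA. Elongation factor eEF1A then delivers each aminoacyl-tRNA and eEF2 moves the ribosome along. In neurons eEF1A2 replaces eEF1A1 as cells mature, and 4E-BP2 is the main repressor of eIF4E in the brain. Many factor mRNAs begin with a 5′ terminal oligopyrimidine (TOP) tract, which places their own translation under mTORC1 control.

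Total counts per library ran from 27745296 to 50517581. Members took 1.17 to 1.30% of the counts in the 10 second-set supernatants, 1.05 to 1.09% in the 4 first-set supernatants and 1.01 to 1.136% in the 6 IP libraries. The GFP-positive IP held 1457 CPM (counts scaled to library size) of Gnrh1 against 7.85 to 33.5 CPM in the 5 negative IPs, as its label says. Neuron markers summed to 4750 to 5592 CPM in the negative supernatants and 5186 to 7654 CPM in the negative IPs, and markers of the preoptic area to 249 to 350 CPM and 193 to 278 CPM. Of the 6 neuron markers, 2 were higher in the IP (Nefl most, log2 1.89), 2 were lower and 2 did not pass the test below. In bulk libraries, fewer cells of a type and less RNA per cell cannot be told apart. CPM values below were scaled with the trimmed mean of M-values (TMM) over all 20 libraries unless stated, and log2 differences come from edgeR's quasi-likelihood test, with p-values adjusted by Benjamini-Hochberg over all genes tested and a threshold of 0.05.

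Per kb of transcript, the most abundant members in the 10 second-set supernatants were Eif1, which guards start codon choice, at 1128 ± 115 CPM per kb (SD, n = 10), Eef1a1 at 861 ± 129.97 and Eif5a, whose hypusine-bearing product eases peptide bond formation, at 707 ± 61.9. The SD ranges of Eef1a1 and Eif5a overlapped, and that of Eif1 lay above both. The helicase genes Eif4a2 (245 ± 14.9 CPM per kb) and Eif4a1 (227 ± 18.8) and the helicase cofactor gene Eif4h (245 ± 13.1) overlapped in their SD ranges. The scaffold gene Eif4g2, which encodes a scaffold that lacks the eIF4E-binding site, reached 79.4 ± 7.21 CPM per kb, above 17.6 ± 2.22 for Eif4g1 and 8.16 ± 0.533 for Eif4g3. Cap-binding Eif4e stood at 60.3 ± 3.98 CPM per kb. The regulators were low: 5.36 ± 0.719 CPM per kb for Eif4ebp2, 2.72 ± 0.328 for Eef2k, the kinase that inhibits eEF2, and 1.13 to 2.65 CPM per kb for 3 of the 4 kinases of eIF2 alpha, with Eif2ak1 (HRI) at 14.7 ± 2.05. Over these 10 pools the coefficient of variation of the 62 tested members had a median of 10.2%, from 4.94% for Eif1a to 46.6% for Eif4ebp3.

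The first comparison set the IP against the supernatant of the 5 negative pools, to show which factor mRNAs a pull-down without tagged ribosomes retains. The pull-down was poorer in the mRNAs of eEF1A, eIF5A, the eIF4A helicases and Eif4e, and richer in those of the scaffolds Eif4g1 and Eif4g3 and of Eif3a. Of 62 members, 25 fell and 11 rose, while 16.2% of all 16361 genes tested fell and 15.8% rose. The median member difference was log2 -0.25, against -0.03 over all genes. Without the 4 Argonautes, 7 of 58 rose and 25 fell. Among called members without overlap between the fractions, the 8 largest rises and 8 largest falls kept their calls without any 1 of 10 libraries. That ranking used the same libraries, which favoured this. Eif4a1, Eif4a2 and Eif5a2 also kept theirs. Eif2c1 and Eif2c4, called with overlapping fractions, are not among those ranked, and the number that rose was 8 without adult supernatant 1.

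**Figure D1:**
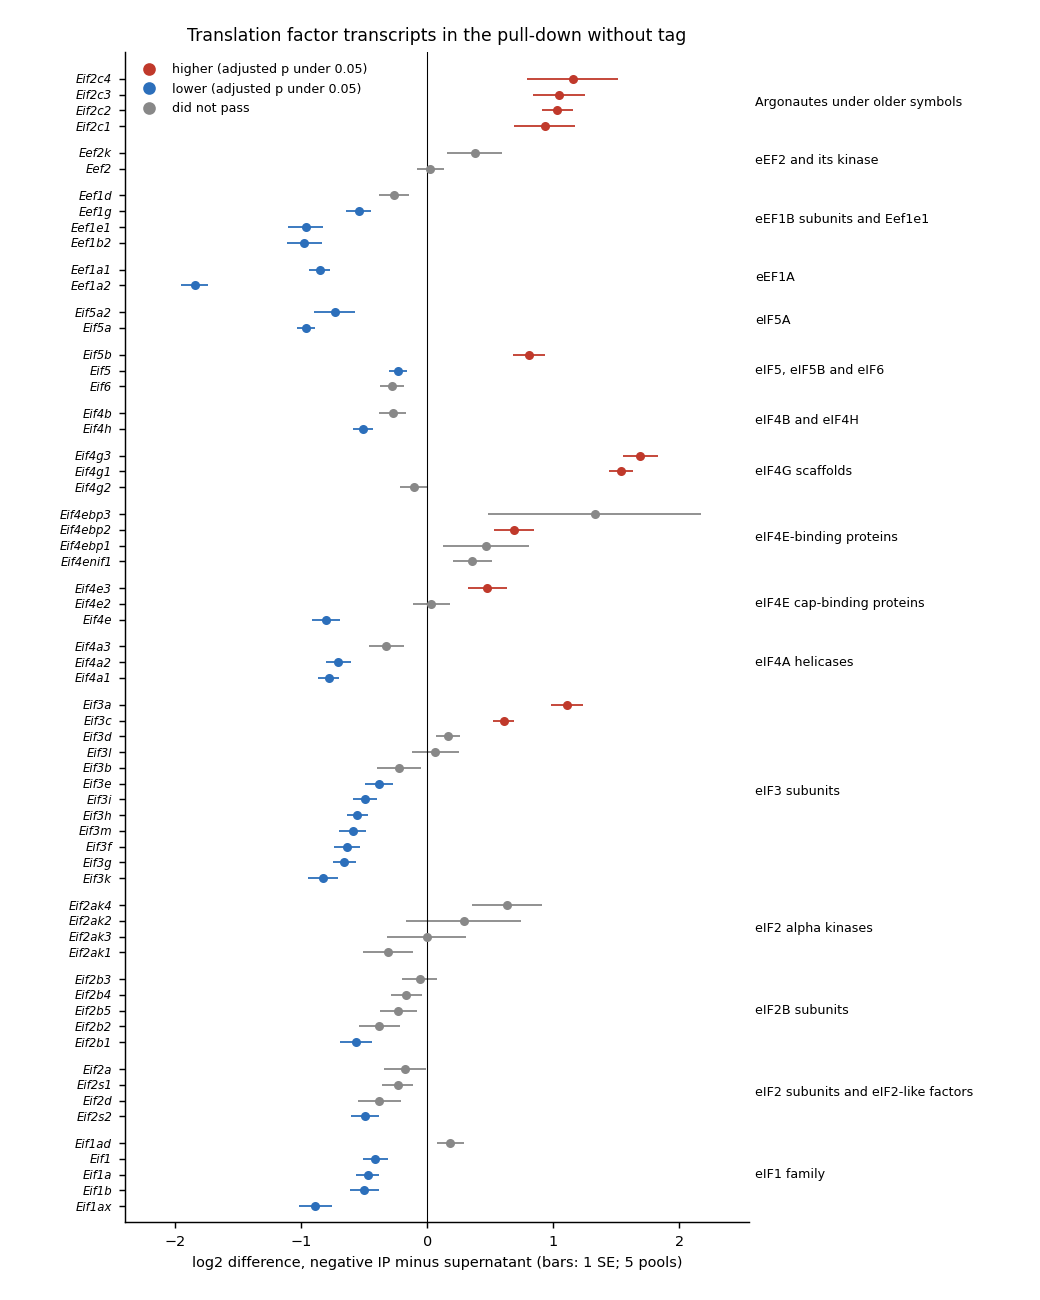
Log2 difference between IP and supernatant of the negative pools (x axis, bars 1 SE) for the 62 tested members, grouped by role on the y axis; red points rose, blue points fell, grey points did not pass. Eif4g3 and Eif4g1 lie farthest to the right among members that passed and Eef1a2 farthest to the left.

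Scaffold mRNAs rose most. Eif4g1 (eIF4G1, the platform that joins cap, helicase and eIF3; chromosome 16 from 20668313 to 20692884, GRCm38) was at 90.9, 89.1 and 108 CPM in the young and 89.4 and 90.2 CPM in the adult supernatants. In the IP it was at 301, 263 and 321 CPM in the young and 255 and 260.3 CPM in the adult pools. Every IP was above every supernatant, 2.91-fold (log2 1.54, SE 0.10, adjusted p = 3.78e-06). Eif4g3 (eIF4G3, its paralog; chromosome 4 from 137993022 to 138208508) went from 71.8, 59.5, 70.0, 61.99 and 66.3 CPM in the supernatants to 228, 145, 232, 233 and 231 CPM in the IPs of young pools 1 to 3 and adult pools 1 and 2. The groups did not overlap, although young IP 2 was well under the other 4 IPs (log2 1.69, SE 0.14, adjusted p = 1.89e-05). Eif4g2 (DAP5) had 607, 644, 723, 617 and 506 CPM in the supernatants and 640.1, 589, 725, 579 and 442 CPM in the IPs, overlapping ranges (log2 -0.11, SE 0.11, adjusted p = 0.522).

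The cap-binding and helicase subunits of the same complex went the other way. Eif4e, the cap-binding subunit, stood at 297, 293, 281, 333 and 292 CPM in the supernatants and 221, 181, 151, 176 and 159 CPM in the IPs. Every IP was under every supernatant (log2 -0.81, SE 0.11, adjusted p = 4.13e-04). Eif4a1 fell from 401, 436, 430.3, 379 and 330.4 to 252, 247, 251, 228 and 195 CPM, again with no overlap (log2 -0.78, SE 0.08, adjusted p = 9.08e-05). Eif4a2, the helicase of neurons and other resting cells, fell from 685, 657, 574, 626 and 686 to 373, 378, 369, 370.2 and 509 CPM, with adult IP 2 highest of the IPs (log2 -0.71, SE 0.10, adjusted p = 4.24e-04). Eif4a3, which sits in the exon junction complex rather than in eIF4F, did not pass (-0.33 (SE 0.14, adjusted p = 0.108)). The shares of Eif4a2 in the reads per kb of both helicases were 52.6 ± 5.95% in the IP and 51.7 ± 4.07% in the supernatant (SD, n = 5 each), a difference smaller than the spread.

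**Figure D2:**
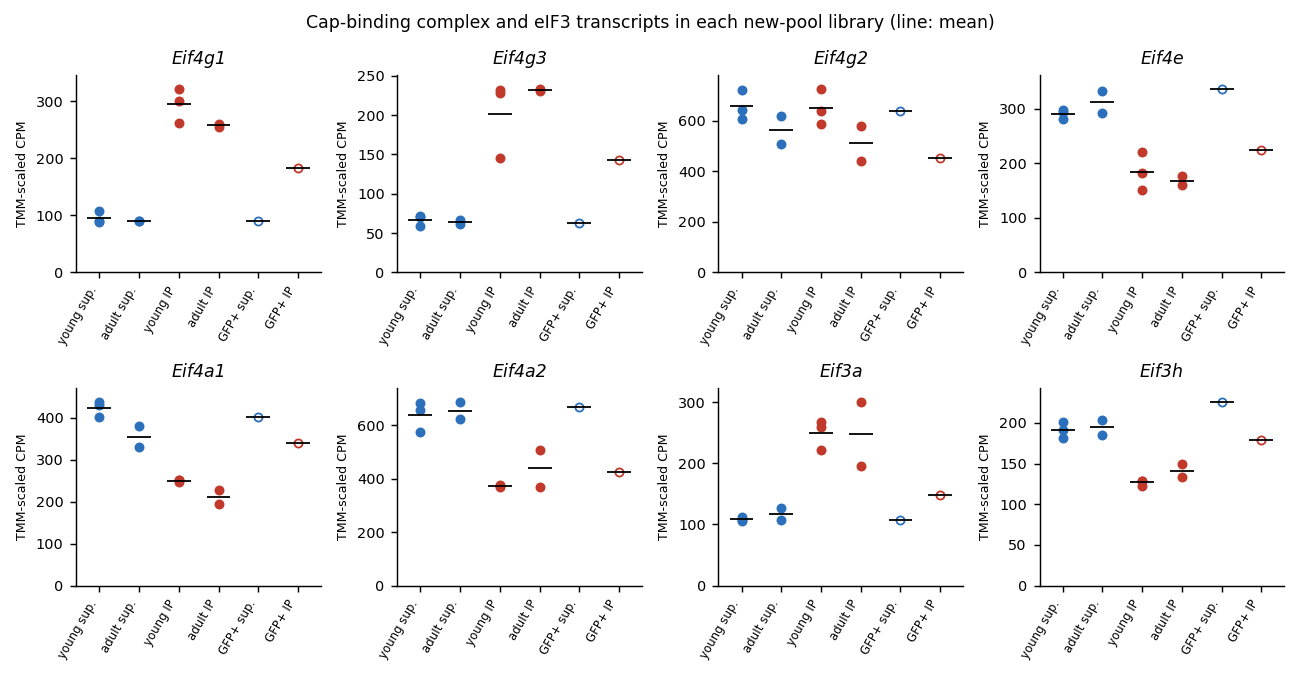
TMM-scaled CPM (y axis, from 0) of 3 scaffold, 1 cap-binding, 2 helicase and 2 eIF3 transcripts in each new-pool library; filled points are negative pools, open points the GFP-positive pool, red IP and blue supernatant (sup.), lines are means. Eif4g1, Eif4g3 and Eif3a are higher in every negative IP than in every negative supernatant, and Eif4e, Eif4a1, Eif4a2 and Eif3h lower.

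Among relatives and repressors of eIF4E, Eif4e3, a cap-binding homolog, rose by log2 0.48 (SE 0.16, adjusted p = 0.0392), and Eif4e2, whose product (4EHP) represses translation, did not pass at 0.03. Eif4ebp2 (4E-BP2) was at 30.6, 36.4, 33.1, 34.5 and 35.0 CPM in the supernatants and at 71.2, 50.2, 48.7, 65.0 and 45.7 CPM in the IPs. All 5 IPs were above all 5 supernatants (log2 0.69, SE 0.16, adjusted p = 0.00809). Eif4ebp1 (4E-BP1) stood at 3.59 to 7.93 CPM in the supernatants and 6.17 to 11.1 CPM in the IPs, and did not pass (log2 0.47, SE 0.34, adjusted p = 0.352). Eif4enif1 (4E-T) and Eif4ebp3 also did not pass, with log2 0.36 and 1.33. Eif4h fell by log2 -0.51 (SE 0.08, adjusted p = 8.01e-04), and Eif4b, its relative, did not pass (-0.28 (SE 0.11, adjusted p = 0.0804)).

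Subunits of eIF3 moved in both directions: 2 of 12 rose, 7 fell and 3 did not pass. Eif3a, the largest subunit, was at 106, 107, 112, 107 and 128 CPM in the supernatants and 267, 222, 259.6, 196 and 299 CPM in the IPs. No IP reached down to a supernatant (log2 1.11, SE 0.12, adjusted p = 1.22e-04). Eif3c, which forms the core of the complex with Eif3a, rose from 133, 133, 132, 123 and 134 to 185, 177, 210.0, 206 and 226 CPM (log2 0.60, SE 0.08, adjusted p = 4.32e-04). Eif3k fell most, from 162, 182, 152, 145 and 165 to 74.5, 102, 87.0, 89.8 and 103 CPM, with no overlap (log2 -0.83, SE 0.12, adjusted p = 4.53e-04). The other 6 that fell were Eif3e, Eif3f, Eif3g, Eif3h, Eif3i and Eif3m, by log2 -0.38 to -0.66. Eif3b, Eif3d and Eif3l lay between -0.22 and 0.16.

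Of the 5 genes of the eIF1 family, which scan for the start codon, 4 fell: Eif1ax, the X-linked eIF1A gene, by log2 -0.89 (SE 0.13), then Eif1b, Eif1a and Eif1 by -0.50, -0.47 and -0.41. Eif1ax was at 63.2, 63.0, 60.5, 54.1 and 60.9 CPM in the supernatants and 26.6, 32.6, 38.5, 31.9 and 34.9 CPM in the IPs, without overlap. Of the 4 genes for eIF2 subunits and eIF2-like factors 1 fell and 3 did not pass, with a median of log2 -0.31. The alpha subunit gene Eif2s1, the target of the stress kinases, stood at 84.7, 106, 101, 88.4 and 84.5 CPM against 72.6, 76.1, 93.0, 67.2 and 90.1 CPM and did not pass (log2 -0.24, SE 0.12, adjusted p = 0.188). The beta subunit gene Eif2s2 fell by log2 -0.50 (SE 0.11). Among the 5 subunits of eIF2B, the exchange factor that recharges eIF2, Eif2b1 fell (log2 -0.57, SE 0.13, adjusted p = 0.00703) and the other 4 lay between -0.38 and -0.06. The kinases of eIF2 alpha did not pass: Eif2ak1 (HRI) at log2 -0.31 (SE 0.20), Eif2ak2 (PKR) at 0.29 (SE 0.46), Eif2ak3 (PERK) at -0.01 (SE 0.32) and Eif2ak4 (GCN2) at 0.63 (SE 0.28). The smallest adjusted p among them was 0.113, and their levels ran from 2.79 to 67.5 CPM in the negative libraries. Eif5b, the GTPase that joins the ribosomal subunits, rose from 68.5, 61.2, 57.3, 57.2 and 73.9 to 81.7, 104, 93.4, 124 and 154 CPM (log2 0.80, SE 0.13, adjusted p = 8.37e-04), and Eif5, which triggers GTP hydrolysis on eIF2, fell by log2 -0.23 (SE 0.07).

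Of the 8 members with Eef1 or Eef2 symbols, which include Eef1e1 and the kinase gene Eef2k, 5 fell and 3 did not pass. Eef1a2 (chromosome 2 from 181147653 to 181157014) was at 196, 193 and 197 CPM in the young and 136 and 121 CPM in the adult supernatants. It was at 36.9, 36.2 and 46.2 CPM in the young and 46.2 and 55.8 CPM in the adult IPs. Every IP was below every supernatant, 3.60-fold (log2 -1.85, SE 0.11, adjusted p = 2.71e-06), the largest fall of any member. Eef1a1 (chromosome 9 from 78478449 to 78489151) went from 1577, 1667, 1347, 1739.9 and 1939.5 to 842, 824, 794, 1009.5 and 1188 CPM, also without overlap, although adult IP 2 came close to young supernatant 3 (log2 -0.85, SE 0.08, adjusted p = 5.56e-05). Eef1a2 made up 5.12 to 11.2% of the reads per kb of the pair in the supernatants and 3.64 to 4.77% in the IPs (means 8.26 ± 2.50% and 3.95 ± 0.47%, SD, n = 5 each). The share was lower in the IP in 5 of 5 pools. The two-sided exact permutation test gave p = 0.00794 unpaired, the smallest that 5 against 5 allow, and 0.0556 after adjustment over 21 such share tests. Paired by pool, an alternative chosen after seeing the data, the exact permutation test gave p = 0.0625, the smallest that 5 pairs allow. Eef1b2 and Eef1g, subunits of the exchange factor that recharges eEF1A, fell by log2 -0.97 (SE 0.14) and -0.55 (SE 0.10), as did Eef1e1 (AIMP3, a protein of the tRNA synthetase complex) by -0.97 (SE 0.14); Eef1d did not pass (-0.26). Eif5a fell from 1124, 1112, 1079, 1019.6 and 1051 to 571, 505, 585, 589.9 and 548 CPM (log2 -0.96, SE 0.07, adjusted p = 1.02e-05) and its paralog Eif5a2 by -0.74 (SE 0.16). Eef2, at 577, 523, 494, 545 and 649 CPM in the supernatants and 589.6, 502, 558, 522 and 724 CPM in the IPs, overlapped throughout (log2 0.02, SE 0.11, adjusted p = 0.903), and Eef2k did not pass (0.38 (SE 0.22, adjusted p = 0.233)). Eef1a1, Eif1, Eif5a and Eif4a1 have many near-identical copies in the genome and Eef1a2 resembles Eef1a1, so these levels are uncertain where the authors' counting could have split reads.

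Of the 10 factor genes listed as having a TOP tract, 7 fell in the IP and the other 3 (Eef1d, Eef2 and Eif4b) did not pass, with a median of log2 -0.55. Over all members 25 of 62 fell, and 16.2% of all genes did. The longest annotated transcripts of the 7 ran from 1295 to 2514 nt, and those of the other 3 from 2842 to 3854 nt. Length and TOP tract were not tested apart. RefSeq promoter entries (build GRCm38.p6) existed for 6 of the 10, and 4 of these had an unbroken run of at least 8 C or T within 25 bases before to 50 bases after the annotated start, on the gene's strand. The 30-base windows around these runs are shown because the 4 genes differ in the comparison, Eef2 at log2 0.02 and Eef1a2 at -1.85; they lie at chr9:78481710-78481739 (minus strand), chr2:181157014-181157043 (minus), chr10:81176634-81176663 (plus) and chr7:108934404-108934433 (plus), with the run in capitals.
Eef1a1: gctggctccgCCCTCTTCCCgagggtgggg
Eef1a2: ttttgcctgTTTTTCTCTCCTggtctgcgt
Eef2: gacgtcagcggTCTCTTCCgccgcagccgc
Eif3f: ttctaggCTCTCTCTCTTTCTCggcaagat
The runs start at -5, -19, 15 and -4 bases from the annotated start, in the order printed, so that of Eef1a2 ends before that start. Whether run length goes with the differences was not tested. Of members outside the list, Eif3a, which rose, has a run of 13 bases that starts at 30. Eif2b5, which did not pass, has one of 21 that starts at -17. A run in this window need not lie where the mRNA begins. Such runs were not more frequent among members than elsewhere: 15 of 49 members with an entry (30.6%) and 8213 of 27025 genes (30.4%) had one.

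Over both ages together the 4 Argonaute genes rose, by log2 0.93 to 1.15. For Eif2c1 and Eif2c4 the fractions overlapped. Young IP 3 held 21.7 CPM of Eif2c1 and 7.47 CPM of Eif2c4, against supernatants of up to 22.4 and 8.98 CPM. By age, Eif2c1 passed in young pools only and Eif2c4 in neither young nor adult pools. Eif2c2 (Ago2, the slicing Argonaute) was at 65.9, 68.1, 64.8, 58.3 and 55.5 CPM in the supernatants and 143, 122, 159, 136 and 96.1 CPM in the IPs, without overlap (log2 1.03, SE 0.12, adjusted p = 1.72e-04). Eif2c3 (Ago3) rose by 1.04 (SE 0.21).

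Length ran with these differences. The transcripts of the members that rose had a median of 6537 nt, of those that fell 1939 nt and of the others 3017 nt. Across the 62 members the Spearman correlation of the log2 difference with transcript length was 0.54 and with coding length 0.53, a description across genes that share the same 10 libraries; over the 58 members with a mean log2 CPM of at least 3 it was 0.62 with transcript length, and over the 10684 genes past the same limit 0.60. Of 20 members under 2000 nt, 13 fell and 7 did not pass. Of 19 members of at least 4000 nt, 9 rose and 4 fell (Eif1ax, Eif4e, Eif5 and Eif5a2). These 4 have long untranslated parts: Eif5a2 has 459 coding bases in 5027 nt and Eif4e 651 in 4991. So have members that rose, such as Eif2c3 with 2580 coding bases in 15595 nt and Eif2c2 with 2580 in 13800. Untranslated length was not tested. The longest coding sequence of a member that fell was that of Eef1a2, 1389 nt. Of the 25 members with a longer one, 9 rose and 16 did not pass. This limit was taken from the same calls, so the lack of falls above it was fixed in advance and tests nothing. Of the 37 members at or under it, 25 fell, 10 did not pass and 2 rose. These 2 were Eif4ebp2, with 360 coding bases in 5784 nt, and Eif4e3, with 621 in 2515.

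**Figure D3:**
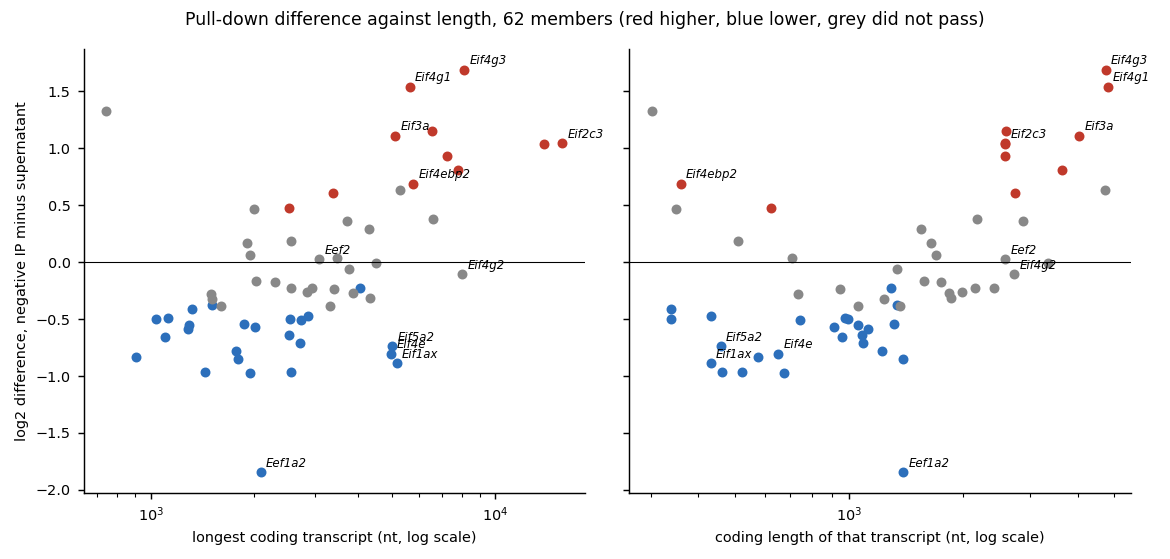
Log2 difference between IP and supernatant of the negative pools (y axis) against the length of the longest annotated coding transcript (left) and of its coding sequence (right), both on log axes in nt, for 62 members; red rose, blue fell, grey did not pass. Blue points reach up to a coding length of 1389 nt, a limit set by the longest of them. Eif1ax, Eif4e and Eif5a2 sit low among long transcripts in the left panel.

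When each library's trend on transcript length was taken out, 6 members rose and 18 fell. Kept were the rises of Eif4g1 (log2 1.09), Eif4g3 (0.92), Eif3a, Eif3c and Eif4e3, and 16 of the 25 falls, among them Eef1a2 (-1.65), Eef1a1 (-0.57), Eif4e (-1.15) and Eif5a (-0.56). Lost were the rises of Eif5b, Eif4ebp2 and the 4 Argonautes, with Eif2c2 at -0.05 and Eif2c3 at -0.09, and the falls of Eif1, Eif1b, Eif2b1 and 6 of the 7 eIF3 subunits, Eif3k being at -0.20. Gained were a rise of Eif3d (0.41) and falls of Eif4b (-0.43) and Eif4g2 (-0.86, adjusted p = 5.41e-04). Eif4g2 was the scaffold gene that rose under neither treatment of length. The length is that of the longest annotated transcript, which need not be the one expressed.

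Other parts of the pathway, from lists outside the members, are given by count in the same comparison, beside the 15.8% of all genes that rose and 16.2% that fell; lists with 1 gene called in a direction are near these shares. Of 9 genes of the mTORC1 and MNK arm, which phosphorylates 4E-BPs and eIF4E, 5 rose and 1 fell, with Mtor at log2 1.24 (SE 0.14, adjusted p = 1.25e-04). Of 11 partners in mRNA recruitment 3 rose and 5 fell, with Paip2b, an inhibitor of poly(A)-binding protein, at -1.12 (SE 0.18). Of 7 genes of the integrated stress response, which follows eIF2 alpha phosphorylation, 3 rose and 1 fell; Trib3, a stress-induced pseudokinase gene, rose from 0.268 to 2.53 CPM in the supernatants to 4.00 to 18.1 CPM in the IPs (log2 3.10, SE 0.45). Of 6 termination and recycling genes 1 rose (Gspt2, 0.76) and 2 fell. Of 8 genes for factor modification 1 rose and 3 fell, led by Dhps, which makes the hypusine of eIF5A, at -0.77. Of 7 mitochondrial translation factors 1 rose (Gfm2, 0.56) and 1 fell. Transcript length ran with the differences, as given above, and was not taken out for any of these lists.

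The members with the largest differences over both ages together had the same sign at each age, which that ranking favoured. Eif4enif1, among the largest rises in young pools, had the opposite sign in adult pools and did not pass there. In young pools 10 members rose and 28 fell (13% and 14.1% of all genes), with a median of log2 -0.39 against 0.01 for all genes. In adult pools 7 rose and 12 fell (6.39% and 4.49%), with medians of -0.18 and 0.00. Eif4g1 rose by 1.58 (SE 0.12) in young and 1.504 (SE 0.15) in adult pools, and Eif4g3 by 1.54 (SE 0.17) and 1.84 (SE 0.21). Eef1a2 fell by -2.34 (SE 0.14) in young and -1.35 (SE 0.16) in adult pools, Eif5a by -1.04 and -0.88, and Eif4e by -0.70 and -0.91, its adult call being lost without adult supernatant 1 (adjusted p = 0.078). Leaving out 1 library moved the adult counts to 2 higher and 3 lower (without adult supernatant 1), 4 and 4 (without adult supernatant 2), and to 5, 6 and 5 lower without adult IP 1, young supernatant 1 or young supernatant 2. The young count of rises was 5 without young supernatant 2 and 6 without young supernatant 3.

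The test of the difference between the ages called 0 members in either direction (0% of all genes higher and 0% lower; edgeR), with 5 members and 1068 of 16361 genes at an unadjusted p under 0.05. limma-voom also called 0 members, and DESeq2 called 1 in each direction. These were Eef1a2 (0.99 (SE 0.21), adjusted p = 0.388 in edgeR and 0.00382 in DESeq2) and Eif4enif1 (-1.30 (SE 0.31), adjusted p = 0.465 and 0.022). Eif4enif1 was at 33.1, 31.8 and 38.5 CPM in the young supernatants and 65.0, 79.1 and 70.1 CPM in the young IPs. In the adult pools it was at 40.5 and 33.6 CPM and 36.5 and 24.5 CPM. The young fractions did not overlap and the adult ones did. Eef1a2 was lower in the adult than in the young negative supernatants, while the IPs lay closer together. Age cannot be told apart from genotype in these pools.

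The adult GFP-positive IP, 1 library without a replicate and therefore without a test, was placed against the range of the 5 negative IPs, with CPM from a scaling of the 12 new-pool libraries. Of 62 members 20 lay above this range, 36 within and 6 below, against 17.9% of all genes above and 15% below. Each negative IP, placed against the narrower set of the other 4, had 7 to 21 members above and 9 to 19 below. Of all genes, 18.6 to 20.9% were above and 14.8 to 19.6% below in these placings. Of the 12 eIF3 subunits 8 were above: Eif3g was at 247 CPM against 109 to 163 CPM in the negative IPs, and Eif3h at 179 against 119 to 146. Eif3a was below, at 147 CPM against 189 to 294. Eif4a1 (338 against 191 to 246 CPM) and Eif4e (222 against 148 to 214) were above, and Eif4g1 was below (182 against 246 to 316). For these genes the GFP-positive IP lay between the negative IPs and its own supernatant, which held 249.8 CPM of Eif3g, 233 of Eif3h, 111 of Eif3a, 416 of Eif4a1, 347 of Eif4e and 93.2 of Eif4g1. Eef1a2 was within the negative range, at 47.5 CPM, with 185 CPM in the own supernatant. Of the 20 members above the negative IPs, 8 were also above the own supernatant (Eef1d, Eif2b2, Eif2b3, Eif2d, Eif2s1, Eif3b, Eif3l and Eif4a3). The share of all genes that met both conditions was not computed, so this count has no reference. Eif2b3 was at 57.5 against 38.1 CPM in the supernatant, Eif3b at 229 against 194 and Eif2d at 39.2 against 38.4.

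The comparison of age used 1 second-set supernatant from each of 10 pools, 5 young and 5 adult, with pool origin (new or prior) as a term. Among the new pools genotype changed with age: young pools were wild type or Floxed-L10a-GFP only, and adult pools carried GnRH CRE. The prior pools all had the same genotype. Age and genotype cannot be told apart among the new pools, and the origin term does not separate them. Of 62 members, 2 were higher in adults and 4 lower, against 4.16% and 5.6% of 15537 genes, and the member median was log2 -0.04 against 0.00. Of the 5 eIF2B subunits, 2 were lower in adults and the other 3 did not pass. Eif2b1 was at 76.2, 84.0, 78.5, 92.9 and 78.1 CPM in the young and 59.9, 60.8, 60.9, 59.97 and 69.2 CPM in the adult supernatants. Every adult pool was below every young pool (log2 -0.40, SE 0.07, adjusted p = 0.00463). Eif2b4 was at 85.8, 84.0, 80.2, 85.5 and 71.6 CPM and 67.9, 69.0, 70.5, 56.9 and 64.7 CPM, again with no overlap (log2 -0.31, SE 0.07, adjusted p = 0.0162). Eif5 was at 515, 509.5, 476, 503 and 454 CPM and 413, 418, 441, 402 and 450.2 CPM (log2 -0.21, SE 0.06, adjusted p = 0.038), and Eif2c2 was lower by -0.29 (SE 0.07, adjusted p = 0.0199).

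The members higher in adults were Eef1a1 and Eef1g. Eef1a1 was at 1577, 1667, 1347, 1208 and 1286 CPM in the young and 1739.9, 1939.5, 1734, 1564 and 1389 CPM in the adult supernatants. The ages overlapped, and new pools were above prior pools at both ages (log2 0.24, SE 0.07, adjusted p = 0.0494). Eef1g changed by 0.26 (SE 0.08, adjusted p = 0.0457). With another scaling (RLE) 0 members were higher and 5 lower. Leaving out 1 pool gave 0 or 1 higher, and Eef1a1 lost its call whichever pool was left out. The number lower was 1 without prior adult pool 3, and 2 without young negative pool 2, adult negative pool 1 or prior adult pool 4. Eif2c2 lost its call without young negative pool 2, prior adult pool 3 or prior adult pool 4 (adjusted p up to 0.0659). Eif2b1 kept its call without each pool, while Eif5 lost it without 8 of the 10 and Eif2b4 without adult negative pool 1 or prior adult pool 3 (adjusted p up to 0.052). With no origin term Eif2b1 alone of the 4 stayed called lower (adjusted p = 0.0141; Eif2b4 at 0.057), and with the new pools only none did (Eif2b1 at log2 -0.38, adjusted p = 0.052, and Eif2b4 at -0.26, adjusted p = 0.135). Eef1a2 was at 196, 193, 197, 136 and 198 CPM in young and 136, 121, 179, 214 and 173 CPM in adult supernatants and did not pass (log2 -0.18, SE 0.15, adjusted p = 0.498). Eef2, Eef2k, the 4 eIF2 alpha kinases, the eIF4G and eIF4A genes, Eif4ebp1 and Eif4ebp2 also did not pass, with log2 differences from -0.18 (Eif4a1) to 0.18 (Eif2ak3). Oligodendrocyte markers, summed over 6 genes, ran from 2375 to 5128 CPM in adult and from 4305 to 6666 CPM in young supernatants, with 3 of 6 lower in adults (Mobp at log2 -1.54); their part in the member differences was not tested.

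The last comparison set the second against the first sequencing set of the same 4 supernatant RNAs, a technical comparison. Of 62 members, 25 were higher in the second set and 7 lower, against 15.7% and 16.7% of 15573 genes, with a median of log2 0.10 against 0.00. Eif4ebp2 (chromosome 10 from 61428491 to 61452661) differed most. It was at 27.8, 22.4, 29.9 and 31.8 CPM in the second set and 7.65, 4.998, 5.93 and 5.32 CPM in the first, for young pools 1 and 2 and adult pools 3 and 4. The sets were far apart in every pool, 4.64-fold (log2 2.21, SE 0.12, adjusted p = 1.24e-08). Eif2c2 was at 80.6, 81.5, 63.5 and 59.8 CPM and 39.1, 38.1, 30.4 and 30.3 CPM, 2.05-fold higher in the second set (log2 1.03, SE 0.06, adjusted p = 3.24e-08). Eef1a1 was at 1208, 1286, 1564 and 1389 CPM and 695, 806, 930.1 and 849 CPM, with no overlap (log2 0.72, SE 0.03, adjusted p = 2.25e-09). Between IP and supernatant, both measured in the second set, Eif4ebp2 differed by 0.69 and Eif2c2 by 1.03, against 2.21 and 1.03 between sets.

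**Figure D4:**
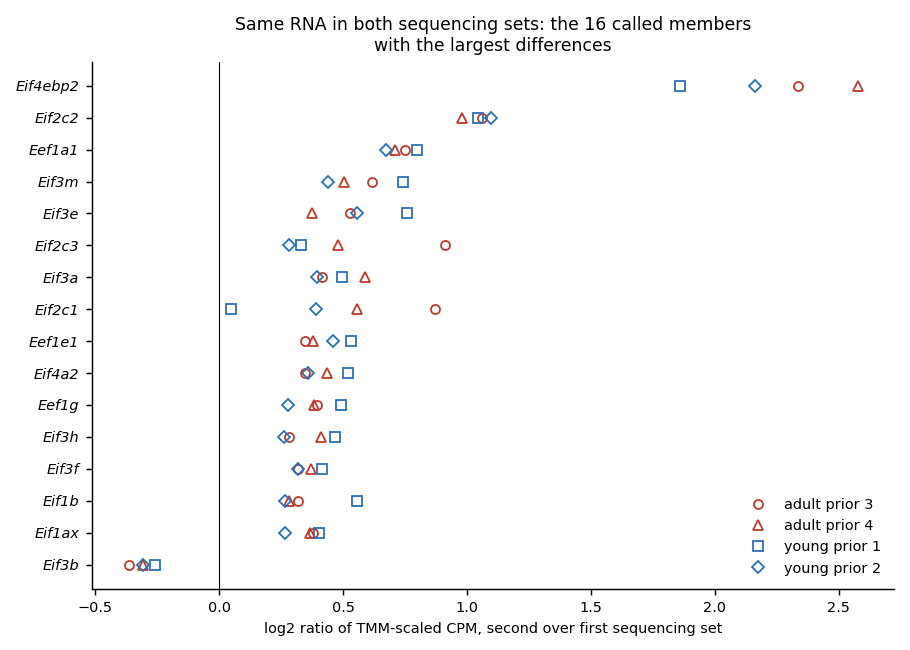
Log2 ratio of TMM-scaled CPM in the second over the first sequencing set (x axis) for each of the 4 prior pools (marker shapes, adult red, young blue) and the 16 members with the largest differences among those called (y axis). Eif4ebp2 stands apart at the right in all 4 pools, and Eif3b is the one gene of the 16 below 0.

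Of the 12 subunits of eIF3, 7 were higher in the second set (Eif3m by 0.56 (SE 0.06), Eif3e by 0.54 (SE 0.06) and Eif3a by 0.46 (SE 0.05)), and Eif3b was lower (-0.32 (SE 0.04)). Of the 10 listed TOP genes 8 were higher and 2 lower, Eef1d by -0.21 and Eef1a2 by -0.22. Eif4a2 was higher by 0.40 (SE 0.04), and Eif4a1 did not pass (0.08). Eif4g1 was higher by 0.21 (SE 0.06) and Eif4g2 lower by -0.30 (SE 0.05). The call of Eef1a2 (adjusted p = 0.0303) was lost without pool 1, 2 or 4, with adjusted p up to 0.108, that of Eif4g1 without pool 2, 3 or 4 and that of Eef1d without pool 2. Eef1a2 was lower in the second set in 3 of the 4 pools and higher in adult pool 3 (214 against 197 CPM), while Eef1a1 was higher in all 4. The share of Eef1a2 in the pair was 8.81 to 11.7% in the second set and 15.4 to 20.01% in the first (means 10.2 ± 1.24% and 17.9 ± 2.12%, SD, n = 4 each). The share of Eif4ebp1 among both major 4E-BPs was 26.9 ± 4.48% in the second set and 61.1 ± 3.46% in the first. For both shares the paired exact permutation test gave p = 0.125, the smallest that 4 pairs allow, and 0.219 after adjustment over the 21 share tests. Per kb of the longest annotated transcript, Eif4ebp1 was thus the larger of the pair in the first set and Eif4ebp2 in the second. In reads not divided by length, Eif4ebp2 was the larger in both sets. In the first set it had 174 to 306 reads, against 99 to 186 for Eif4ebp1.

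**Figure D5:**
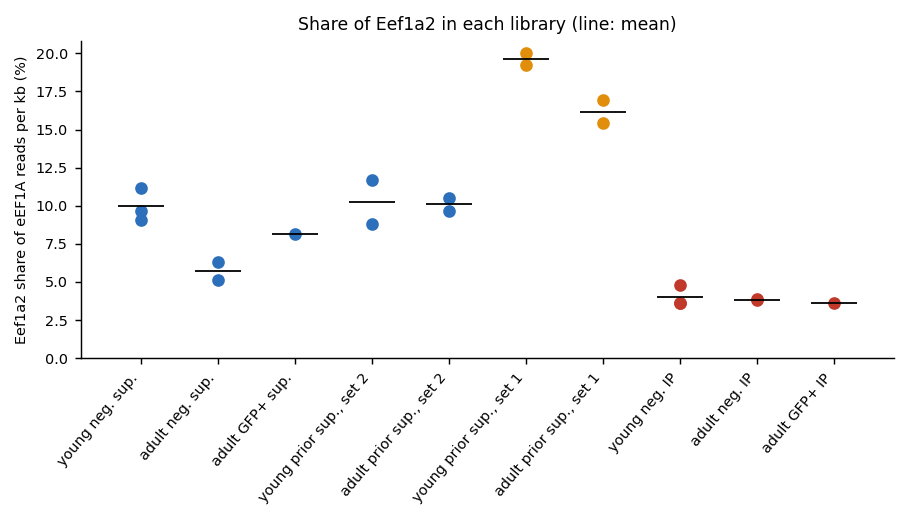
Share of Eef1a2 in the reads per kb of Eef1a1 and Eef1a2 together (y axis, percent, from 0) in each of the 20 libraries by group (x axis; neg. negative, sup. supernatant), with lines at the means. First-set libraries (orange) lie at 15.4 to 20.01%, second-set supernatants (blue) at 5.12 to 11.7% and IPs (red) at 3.64 to 4.77%.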

How the data were processed

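The authors deposited 1 table of raw read counts, whole numbers for 19269 gene symbols and 20 libraries. The submitters' processing notes name HTSeq 0.6.1, TopHat2 2.0.13 with Bowtie2 2.2.1, FastQC 0.11.3, DESeq2 1.14.1, Cuffdiff 2.1.1 and Cufflinks, and build mm10. What each tool did, the annotation, the strand setting and duplicate handling are not given in the sources used here. A SMARTer v4 kit amplified the polyA RNA, per the labels' protocols.

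Groups followed the sample titles. The series text names the GFP-positive supernatant differently in 2 places; titles and genotypes were followed. Each pool was assumed to come from mice of its own; p-values then measure the spread between pools, and between sequencing sets the spread between repeats of the same RNA. No pair of libraries was identical.

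Counts were tested with edgeR 4.0.16 (R 4.3.3, quasi-likelihood test, TMM scaling, filterByExpr with minimum count 10, Benjamini-Hochberg adjustment, threshold 0.05), after checks on simulated data. One fit held the 10 negative libraries in 4 groups, one the 10 second-set supernatants with age and origin, and one the 8 prior libraries with the pool as a term. DESeq2 1.42.0, limma 3.58.1 (voom), RLE scaling, no count filter, the pool as a replicate block, length offsets, other sample choices and leaving out each library were alternatives. Titles pair each negative IP with its supernatant; same-pool deviations correlated at 0.10 to 0.28 across genes. Members named in full were up to 8 in each direction with the largest change among called members whose mean log2 CPM was at least 3 and whose groups did not overlap (overlap was allowed for the test between ages and for the sequencing sets), and 19 followed members; others were given by role or after their values were seen. The members and lists were chosen with earlier results of these data known. A floor of 3 counts lay at 0.0594 to 0.108 CPM, for counting error only. Transcript lengths and gene coordinates came from GENCODE for GRCm38 (mm10), matched for 98.4% of symbols. Reads per kb of a pair gave its shares. Reads of genes that overlap, on either strand, could not be separated.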

Additional observations from a re-analysis of the deposited data

Results flagged for a closer look

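Each of 40 members was checked in 4 groups of 5 libraries for a library whose gap to its nearest neighbour on the log2(CPM + 1) scale was over 0.71 of the group's range (Dixon's 95% critical value). Of these 160 checks 8 exceeded it, and chance gives about 1 in 20. In the negative IPs, Eif4g3 was at 145 CPM in young pool 2 against 228 to 233 CPM in the other 4, and Eif4a2 at 509 CPM in adult pool 2 against 369 to 378 CPM. In the negative supernatants, Eif4g1 was at 108 CPM in young pool 3 against 89.1 to 90.9 CPM. Eif3c was at 123 CPM in adult pool 1 against 132 to 134 CPM, and Eif1ax at 54.1 CPM in the same library against 60.5 to 63.2 CPM. In the young supernatants, Eef1a2 was at 136 CPM in the second-set library of prior pool 1 against 193 to 198 CPM. In the adult supernatants, Eif2ak2 was at 6.41 CPM in negative pool 2 against 4.62 to 4.97 CPM, and Eif2b1 at 69.2 CPM in prior pool 4 against 59.9 to 60.9 CPM. Eif4g3 and Eif4a2 kept their calls between IP and supernatant over all negative pools without any 1 library.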

How the results depend on the processing

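Counts of members called were taken again under each alternative. Between IP and supernatant, length offsets gave 6 higher over all negative pools, 6 higher and 18 lower in young and 3 higher in adult pools, and turned the sign of Eif2c3 (-0.087 over all pools, -0.31 in young) and Eif2c2 (-0.048 over all pools, -0.074 in young, -0.023 in adult); the cause was not tested. Adult libraries alone gave 4 higher and 7 lower, with fewer samples. Leaving out the 4 Argonautes, an alternative chosen after seeing the data, gave 7 higher. With the pool as a replicate block, the paired fit, 10 were higher and 25 lower, in young pools 9 and 28 and in adult pools 6 and 15, and 0 in the test between ages; no count moved by over 1.5 times. DESeq2 called 1 higher and 1 lower between the ages. For age, RLE scaling, no origin term and new pools only each gave 0 higher, and no count filter or first-set libraries 1; no origin term gave 1 lower and new pools only 0 (fewer samples). Between sequencing sets, 12 were higher and 2 lower with no replicate block.

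Leaving out 1 library gave 8 to 12 higher and 23 to 29 lower over all negative pools, 5 to 11 and 21 to 28 in young, 2 to 8 and 3 to 14 in adult pools, 0 and 0 between ages, 0 to 1 and 1 to 6 for age in supernatants, and 21 to 23 and 5 to 9 between sets. Where 1 adult pool remained in a fraction, it was assumed to vary like the other groups. For named members, 913 of the values under other alternatives kept their call or stayed uncalled, 47 lost a call and 13 gained one. A further 5 turned sign with a call in either fit. Changes of sign without a call in either fit were counted among the 913. With 1 library or 1 prior pool left out, 1264 values kept their call or stayed uncalled. In these fits 95 lost a call, 11 gained one and 0 turned sign with a call. Counts for the GFP-positive IP were 19 above and 8 below with RLE scaling. For the 4 members with mean log2 CPM under 3 (Eif4ebp3, Eif2ak2, Eif2ak3 and Eif4ebp1), standard errors between IP and supernatant were 0.32 to 0.84. Differences larger than these errors could also go uncalled, as Eif4ebp3 did at log2 1.33.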
